A study of Sus scrofa with 6 samples.

Results

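The genes described here write, erase or read N6-methyladenosine (m6A), the most common internal modification of messenger RNA. The 9 genes were taken by symbol from the 30376 genes of the deposited expression table. They are METTL3, METTL14 and WTAP of the writer complex, the erasers FTO and ALKBH5, and the readers YTHDC1, YTHDC2, IGF2BP2 and IGF2BP3. All 9 symbols occurred once in the table, and all 9 genes had enough reads to be tested.

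Poly(A) RNA was measured in pig embryos at the 4-cell stage, which in the pig is the stage of major activation of the embryonic genome. Oocytes were activated with 2 electrical pulses of 120 V (the labels name no fertilization), and the embryos were then cultured under oil in 5% CO2 for 4 days. The HT group (3 libraries) was cultured at 41.5 °C and the Control group (3 libraries) at 38.5 °C. The labels name no allele: their genotype field reads HT for the heated embryos and WT for the Control embryos. About 300 embryos are named for library construction, without saying whether that number went into each library. The labels do not tie replicates to separate cultures, and the spread that the tests rest on may therefore be technical.

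Adenosines of mRNA are methylated in the nucleus by a heterodimer in which METTL3 carries the catalytic site and METTL14 helps to hold the RNA. WTAP brings this pair to nuclear speckles and links it to further subunits. FTO and ALKBH5 are iron-dependent dioxygenases that remove the methyl group. YTHDC1 and YTHDC2 bind the methylated base through a YTH domain, and the IGF2BP proteins, which also bind many RNAs through KH domains, are described as readers that stabilize their targets. In mouse oocytes and embryos this system takes part in the maturation and clearance of maternal transcripts.

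Total counts were 28892695, 28668286 and 28114005 reads in the HT libraries and 30079385, 29038434 and 28869484 reads in the Control libraries. All 9 listed oocyte and embryo markers had reads in every library, with a summed level of 2676 to 2740 CPM (counts per 1e+06 of the library total) in HT embryos and 2761 to 3050 CPM in Control embryos. Of 10 cumulus and granulosa markers 9 were in the table. FSHR and AMH were at 0 in every library. INHBA had 119 to 283 reads per library, VCAN 182 to 247, GATM 47 to 109 and TNFAIP6 40 to 91. PTX3 and CYP19A1 had 3 to 14 reads and LHCGR 0 to 5. The sum of the 9 was 20.2 to 23.4 CPM in HT embryos and 17.5 to 20.4 CPM in Control embryos. The 8 stromal and blood markers summed to 10.7 to 12.6 CPM in HT embryos and 10.1 to 14.3 CPM in Control embryos. Mitochondrially encoded transcripts took 23.8% to 26.7% of the counts in HT libraries and 21.0% to 23.6% in Control libraries. The part of these measures in the values below was not tested.

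Per unit of transcript length, the adaptor WTAP was the most abundant of the 9 transcripts and FTO the least abundant. On the FPKM scale (fragments relative to transcript length and sequencing depth, as deposited) WTAP averaged 88.8 ± 16.1 in HT embryos and 76.4 ± 17.8 in Control embryos (SD, n = 3 each). FTO averaged 0.281 ± 0.150 FPKM in HT embryos and 0.299 ± 0.188 FPKM in Control embryos. The order of mean FPKM was the same in both groups: WTAP, IGF2BP3, YTHDC1, METTL14, METTL3, ALKBH5, IGF2BP2, YTHDC2 and FTO. Neighbours whose ranges overlapped were METTL3 and ALKBH5 in HT embryos, and WTAP and IGF2BP3 as well as YTHDC1 and METTL14 in Control embryos. All other neighbours in the order had separate ranges within a group.

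**Figure D1:**
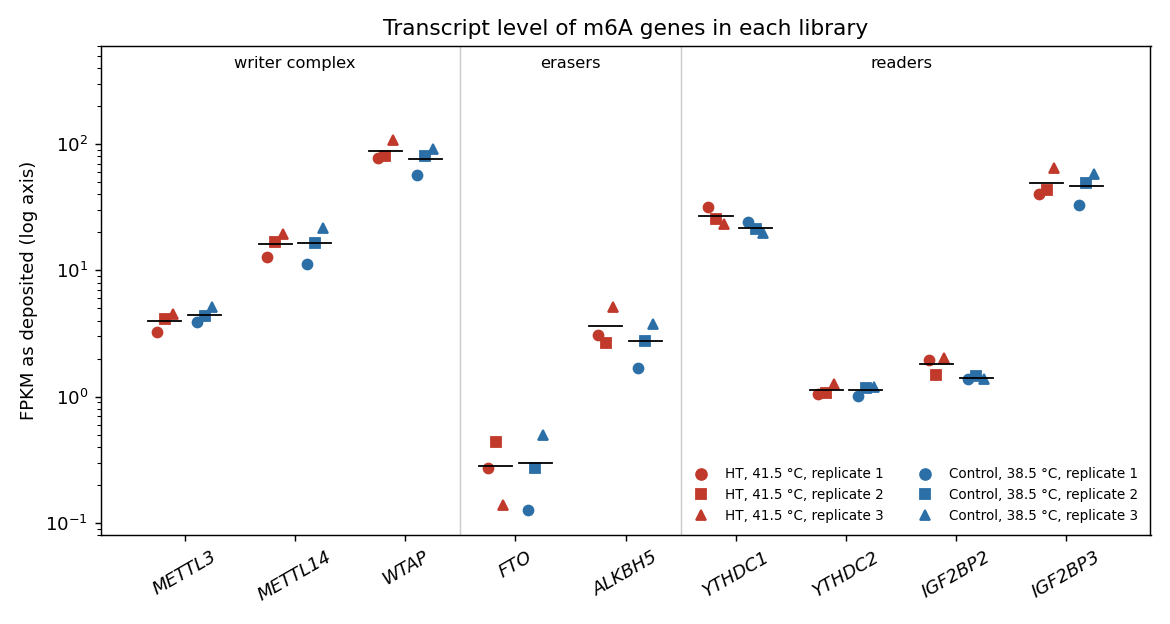
FPKM of the 9 genes on a log axis, grouped as writer complex, erasers and readers. Each symbol is 1 library of HT (red, left) or Control (blue, right) embryos and each bar a group mean. WTAP and IGF2BP3 lie highest and FTO lies lowest at 0.125 to 0.498 FPKM. The groups overlap for every gene except IGF2BP2.

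Placed among the 16056 tested genes by mean FPKM, WTAP lay above 94.9% of them, IGF2BP3 above 92.2%, YTHDC1 above 87.2% and METTL14 above 83.3%. METTL3 lay above 65.0% and ALKBH5 above 60.6%. IGF2BP2 (49.5%) and YTHDC2 (43.3%) were near the middle, and FTO lay above 19.7%. For scale, the oocyte growth factors GDF9 and BMP15 averaged 87.0 ± 13.4 and 343 ± 27.3 FPKM in HT embryos and 81.5 ± 20.3 and 306 ± 57.0 FPKM in Control embryos. WTAP thus had a mean FPKM within a few units of that of GDF9.

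No gene passed an adjusted p below 0.05 in the edgeR quasi-likelihood test of HT against Control embryos (0% of 16056 genes), so 0 of the 9 genes was called. At an unadjusted p below 0.05 edgeR had 0 of the 9, against 297 of all genes tested (1.85%). That share is smaller than the threshold of 0.05, which is about what unchanged genes alone should give. The p-values of this test thus ran high, and 0 of the 9 is weak evidence of no change. Once replicate number was added to the fit, 9.25% of all genes lay below this limit, and still 0 of the 9. Why the shares differ was not tested. DESeq2 also called 0 of the 9 with 6 genes called in all (0.0374%), and had 0 of the 9 at an unadjusted p below 0.05, against 1.82% of all genes. The unadjusted edgeR p of the 9 genes ran from 0.286 to 0.986, and the edgeR adjusted p of each was 0.999923. Of the 9, 5 had a log2 fold change above 0, as had 47.5% of all genes, and the median was 0.0042 against -0.02 over all genes. Scaled by the library total alone, 6 were above 0 and the median was 0.09. Under DESeq2 size factors 4 were above 0 and the median was -0.0036.

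METTL3, the catalytic subunit, was the member whose libraries separated by group on the CPM scale (counts scaled to TMM-adjusted library sizes). It was at 7.36, 9.35 and 9.32 CPM in HT replicates 1 to 3 and at 10.2, 9.69 and 10.9 CPM in Control replicates 1 to 3. Every HT library lay below every Control library, with the smallest gap between HT replicate 2 and Control replicate 2. The means were 8.67 ± 1.14 CPM in HT embryos and 10.3 ± 0.619 CPM in Control embryos (SD, n = 3 each). The log2 fold change was -0.25 (standard error 0.21, 95% interval -0.74 to 0.25; edgeR adjusted p = 0.999923). It was -0.14 without HT replicate 1, -0.15 scaled by the library total alone and -0.13 on log2(FPKM + 1). In libraries of pooled embryos a lower level per cell and another mix of embryos or cells cannot be told apart.

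That separation, seen in 1 of the 9 genes and in 7.71% of all genes tested, depended on the scale. Scaled by the library total alone it was seen in 0 of the 9, and on FPKM METTL3 overlapped, at 3.28, 4.15 and 4.51 in HT embryos and 3.88, 4.33 and 5.09 in Control embryos. Leaving out 1 library gave 2 separated genes without HT replicate 2, HT replicate 3 or Control replicate 1 and 3 without Control replicate 3. Fewer libraries are then compared, which makes separation easier, and the share over all genes was not computed for these sets. METTL3 was among them by construction, since values that are fully separated stay so when 1 is left out. METTL3 (chromosome 7, 77661945 to 77679459, plus strand, Sscrofa11.1) shares its last 55 bases with TOX4 on the minus strand, a gene with 2148 to 4674 counts per library against 215 to 329 for METTL3. The kit does not mark strand, so reads in these bases cannot be assigned. The log2 fold change of TOX4 was -0.33, and that of the sum of both genes was -0.32 (95% interval -1.01 to 0.36).

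METTL14, the partner of METTL3, was at 37.7, 49.5 and 52.6 CPM in HT embryos and at 39.0, 48.6 and 61.1 CPM in Control embryos. The groups covered nearly the same range, and in both of them replicate 1 was the lowest library and replicate 3 the highest. Means were 46.6 ± 7.84 CPM in HT embryos and 49.6 ± 11.09 CPM in Control embryos (SD, n = 3 each). The log2 fold change of -0.09 (95% interval -0.64 to 0.46) had the opposite sign without HT replicate 1 (0.04), without Control replicate 3 (0.10) and on the log2(FPKM + 1) scale (0.01). It was -0.15 without HT replicate 3, -0.14 without HT replicate 2 and -0.24 without Control replicate 1. METTL14 lies on chromosome 8 at 105019539 to 105053603, minus strand, and overlaps no other annotated gene.

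WTAP, the adaptor, had 3183 to 5459 reads per library and was at 146, 150 and 179 CPM in HT embryos and at 122, 142 and 162 CPM in Control embryos. HT replicates 1 and 2 lay within the Control range and HT replicate 3 above it. Means were 158 ± 17.7 CPM in HT embryos and 142 ± 19.7 CPM in Control embryos (SD, n = 3 each), a log2 fold change of 0.15 (95% interval -0.30 to 0.61). The interval was the narrowest of the 9 genes and held no fold change above 1.52. The log2 fold change was 0.05 without Control replicate 1, 0.09 without HT replicate 3, 0.27 without Control replicate 3 and 0.24 scaled by the library total alone. WTAP (chromosome 1, 7622544 to 7651732, minus strand) shares 1093 bases with LOC102157641 on the plus strand, a gene at 0 to 10 reads in each library, and both together gave the same log2 fold change of 0.15.

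FTO was close to the limit of what this depth can measure. It had 14, 21 and 7 counts in the HT libraries and 7, 14 and 24 counts in the Control libraries. The groups interleaved, with the lowest count of 7 in both. The summed counts were 42 in HT embryos (exact Poisson 95% interval 30.3 to 56.8) and 45 in Control embryos (32.8 to 60.2), intervals that cover counting error only. On the CPM scale FTO averaged 0.479 ± 0.250 in HT embryos and 0.516 ± 0.265 in Control embryos (SD, n = 3 each). Its log2 fold change of -0.12 had the widest 95% interval of the 9 genes, -1.52 to 1.28. It was 0.25 without HT replicate 3, 0.35 without Control replicate 3, -0.55 without HT replicate 2 and -0.43 without Control replicate 1. FTO spans 387563 bases of chromosome 6 (31177112 to 31564674, minus strand) and was counted on 1 annotated transcript.

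ALKBH5, the other eraser, was at 11.12, 9.52 and 16.8 CPM in HT embryos and at 7.16, 9.96 and 12.9 CPM in Control embryos. HT replicates 1 and 2 fell within the Control range, and HT replicate 3 was the highest of the 6 libraries. Means were 12.5 ± 3.85 CPM in HT embryos and 10.01 ± 2.88 CPM in Control embryos (SD, n = 3 each). The log2 fold change of 0.32 (standard error 0.31, 95% interval -0.40 to 1.04; edgeR adjusted p = 0.999923) was the farthest from 0 among the 9 genes. It was 0.08 without HT replicate 3, 0.13 without Control replicate 1, 0.48 without HT replicate 2 and 0.55 without Control replicate 3. Over the 6 libraries ALKBH5 varied more than any member other than FTO, with a highest library 2.35 times the lowest. ALKBH5 lies on chromosome 12 at 60507662 to 60530239, minus strand, with no overlapping gene.

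YTHDC1, the nuclear reader, which takes part in splicing and export of methylated RNA, was at 115, 93.0 and 78.2 CPM in HT embryos and at 104, 77.5 and 68.5 CPM in Control embryos. Here replicate 1 was the highest and replicate 3 the lowest library in both groups, the reverse of METTL14. Means were 95.3 ± 18.4 CPM in HT embryos and 83.3 ± 18.4 CPM in Control embryos (SD, n = 3 each), a log2 fold change of 0.19 (95% interval -0.36 to 0.74). It was 0.04 without HT replicate 1, 0.09 without Control replicate 3, 0.36 without HT replicate 3, 0.38 without Control replicate 1 and 0.30 scaled by the library total alone. The gene lies on chromosome 8 at 66086528 to 66122717, plus strand.

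YTHDC2, a reader with an RNA helicase domain that is needed for meiosis in mice, was the steadiest of the 9 transcripts. Its levels were 7.19, 7.44 and 8.01 CPM in HT embryos and 8.23, 8.14 and 7.77 CPM in Control embryos. HT replicate 3 lay between the Control values and the other HT libraries just below them, and the highest library was 1.146 times the lowest. The log2 fold change was -0.09 (95% interval -0.56 to 0.38), and scaled by the library total alone it was 0.0063. Without HT replicate 1 it was -0.06. YTHDC2 lies on chromosome 2 at 118003402 to 118092176, plus strand.

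IGF2BP3 was the more abundant of the IGF2BP members, at 198, 215 and 291 CPM in HT embryos and at 187, 241 and 275 CPM in Control embryos. The groups overlapped almost fully, with means of 235 ± 49.2 CPM in HT embryos and 234 ± 43.9 CPM in Control embryos (SD, n = 3 each). Its log2 fold change of 0.0042 (95% interval -0.53 to 0.54) had the opposite sign with DESeq2 (-0.0036), without HT replicate 3 (-0.15) and without Control replicate 1 (-0.14), and was 0.14 without Control replicate 3. The gene spans 92104786 to 92272264 of chromosome 9 on the minus strand.

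IGF2BP2, its paralog, was at 10.1, 7.82 and 8.99 CPM in HT embryos and at 8.46, 7.998 and 7.204 CPM in Control embryos. HT replicates 1 and 3 lay above all Control libraries and HT replicate 2 among them, and the log2 fold change was 0.19 (95% interval -0.32 to 0.69). It was 0.09 without HT replicate 1, 0.28 without HT replicate 2 and 0.29 scaled by the library total alone. On FPKM the groups did not overlap, with 1.94, 1.47 and 2.01 in HT embryos and 1.37, 1.45 and 1.39 in Control embryos, the closest libraries differing by less than the spread among HT libraries. On that scale IGF2BP2 was 1 of the 9 genes without overlap, against 7.27% of all genes tested, and limma on log2(FPKM + 1) gave a log2 difference of 0.22. IGF2BP2 lies on chromosome 13 at 123485619 to 123650050, minus strand. Like YTHDC1, YTHDC2 and IGF2BP3 it overlaps no annotated gene.

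**Figure D2:**
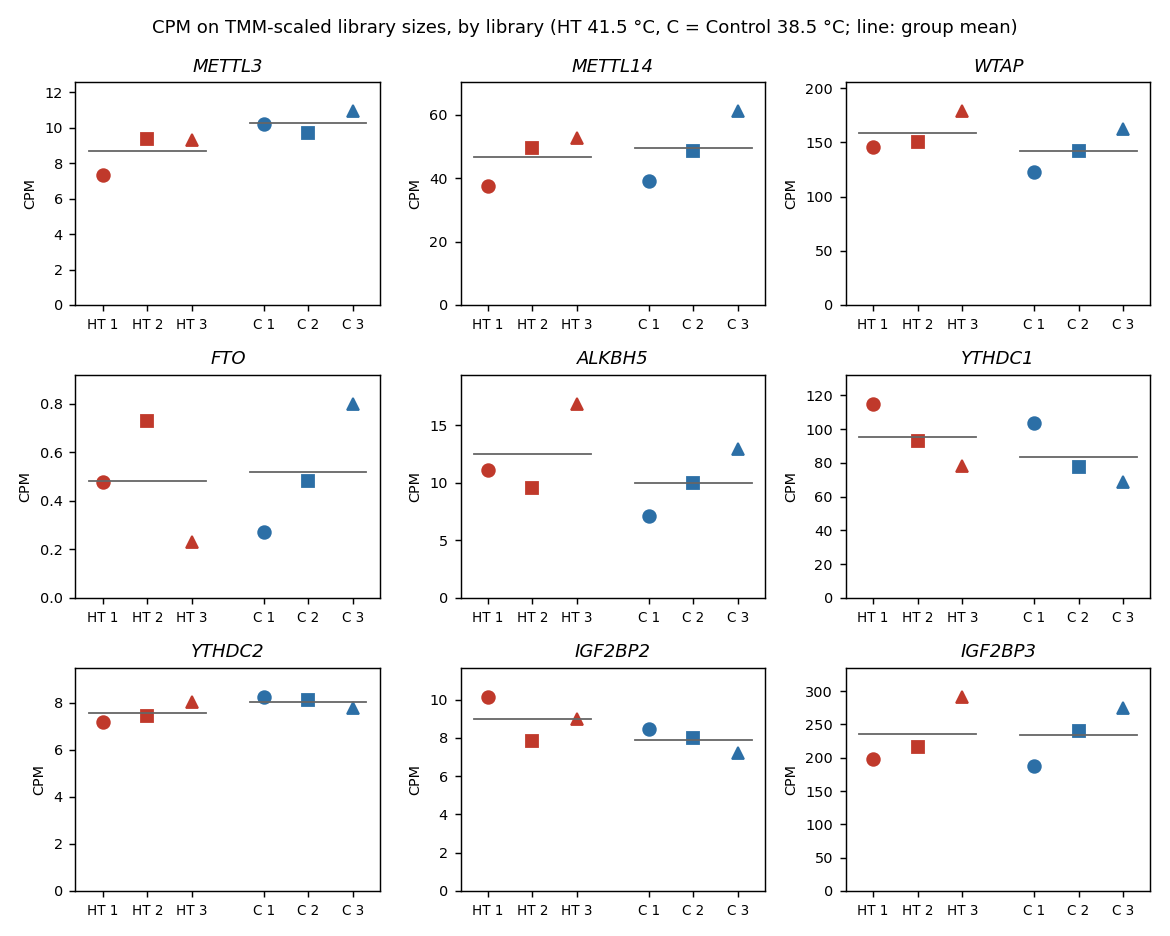
CPM on TMM-scaled library sizes for each of the 9 genes, with 1 point per library, HT replicates 1 to 3 on the left, Control replicates 1 to 3 on the right and a line at each group mean. METTL3 alone shows HT points all below the Control points, by a small gap; METTL14, WTAP and IGF2BP3 have replicate 1 lowest and replicate 3 highest in both groups, and YTHDC1 has the reverse.

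For 4 of the 9 genes the libraries stood in the same order of replicate number in both groups. In METTL14, WTAP and IGF2BP3 replicate 1 was the lowest and replicate 3 the highest library of both groups, which makes 3 of the 9 genes against 16.9% of all genes tested. In YTHDC1 replicate 3 was the lowest and replicate 1 the highest, 1 of the 9 against 20% of all genes. METTL3, FTO, ALKBH5, YTHDC2 and IGF2BP2 followed neither order. The 18S ribosomal RNA, of which a poly(A) library should hold little, followed the first order, at 218, 422 and 968 CPM in HT replicates 1 to 3 and 105, 347 and 554 CPM in Control replicates 1 to 3. Its part in the values of the m6A genes was not tested.

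Ratios of FPKM within a library are free of the scaling between libraries. METTL14 over METTL3 was 3.90, 4.04 and 4.30 in HT embryos and 2.90, 3.81 and 4.26 in Control embryos. The transcript of the RNA-holding partner was thus above that of the catalytic subunit in all 6 libraries, and the groups overlapped, with means of 4.08 ± 0.203 in HT embryos and 3.66 ± 0.692 in Control embryos (SD, n = 3 each). WTAP over METTL3, a ratio chosen after the values were seen and therefore not tested, was 23.9, 19.5 and 23.8 in HT embryos and 14.7, 18.5 and 18.1 in Control embryos. All HT libraries lay above all Control libraries in this ratio, the nearest being HT replicate 2 and Control replicate 2. The share of all gene pairs separated in this way was not computed. METTL3 by itself was separated on the CPM scale, so the ratio adds no independent result.

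Between the erasers, ALKBH5 exceeded FTO in every library. ALKBH5 over FTO was 11.4, 6.06 and 37.1 in HT embryos and 13.5, 10.1 and 7.54 in Control embryos. HT replicate 3, at 37.1, had 7 FTO counts and the highest ALKBH5 level of the 6 libraries. IGF2BP3 over IGF2BP2 was 20.8, 29.7 and 32.0 in HT embryos and 23.9, 33.9 and 41.5 in Control embryos, and YTHDC1 over YTHDC2 was 30.04, 24.1 and 18.7 in HT embryos and 24.1, 18.2 and 16.6 in Control embryos. In both pairs 1 transcript was at least 16.6 times as abundant as the other in all 6 libraries, and the groups overlapped.

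**Figure D3:**
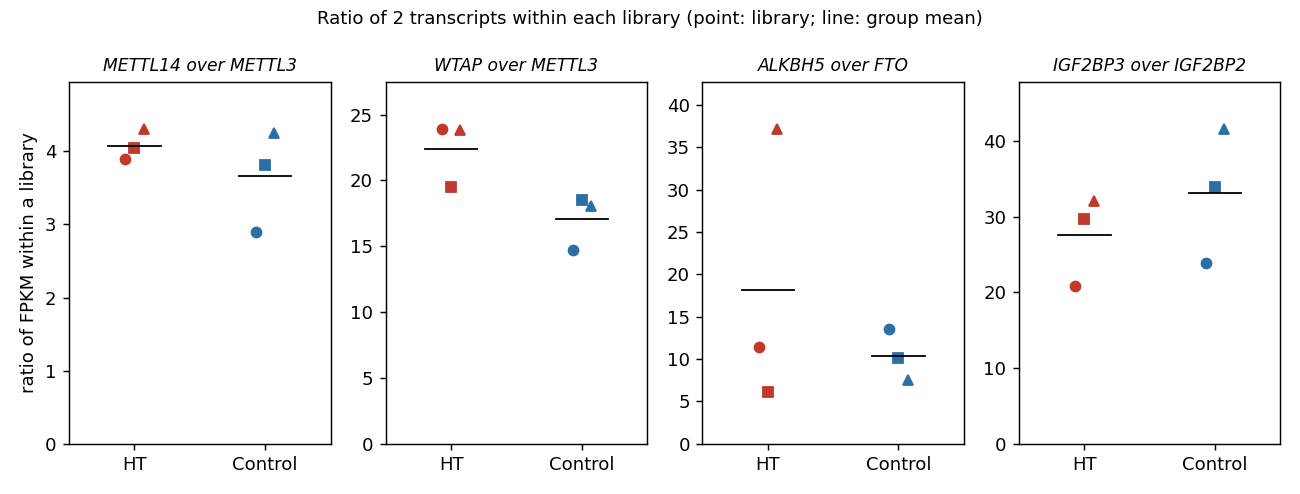
Ratio of FPKM of 2 transcripts within each library, with HT left and Control right, a point per library and a line at the group mean. WTAP over METTL3, chosen after the values were seen, is 19.5 to 23.9 in HT libraries and 14.7 to 18.5 in Control libraries. The share of gene pairs separated in this way was not computed. The other ratios overlap between groups, and ALKBH5 over FTO reaches 37.1 in HT replicate 3.

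The intervals of this model, with group as its only term, rest on the spread between libraries of a group. That spread may be technical, so they need not bound an effect of temperature. The spread also holds any order of replicates that both groups share. For 7 of the 9 genes the 95% interval of the fold change lay within a 2-fold change in either direction, as it did for 49.6% of all genes tested. The exceptions were FTO, whose interval ran from 2.87-fold lower to 2.43-fold higher in HT embryos, and ALKBH5, whose upper end was 2.05-fold. With the replicate number as a block the log2 interval of ALKBH5 was -0.08 to 0.71 and that of FTO -1.61 to 1.39. The median standard error of the log2 fold change was 0.23 over the 9 genes and 0.33 over all genes.

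**Figure D4:**
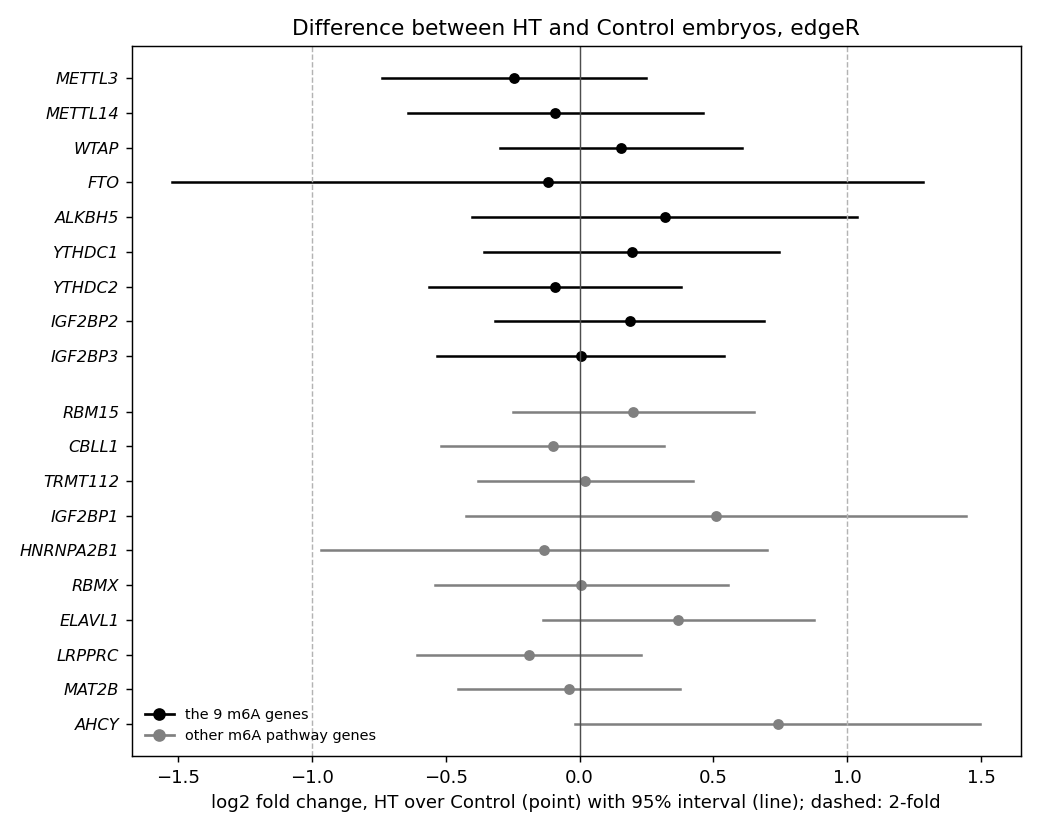
Log2 fold change of HT over Control embryos with its 95% interval from edgeR for the 9 m6A genes (black) and 10 other pathway genes (grey), with dashed lines at a 2-fold change. In this model, with group as its only term, every interval holds 0. That of FTO is the widest, -1.52 to 1.28, and that of AHCY, -0.016 to 1.496, comes nearest to leaving 0 out.

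The rest of the pathway was read from a list of 25 further genes, all of which had enough reads to be tested. By edgeR 0 of the 25 had an adjusted p below 0.05 and 0 an unadjusted p below 0.05, and DESeq2 gave the same counts. With TMM scaling 10 were above and 15 below a log2 fold change of 0 (median -0.03), while scaled by the library total alone 15 were above 0 (median 0.08). By role, 2 of 5 further writer complex genes, 3 of 6 other methyltransferase genes, 4 of 11 readers and 1 of 3 genes of methyl donor supply were above 0 with TMM scaling. On the CPM scale replicate 3 was lowest and replicate 1 highest in both groups in 12 of the 25, against 20% of all genes. The reverse order was seen in 3 of the 25, against 16.9% of all genes. The cause of these orders was not tested. VIRMA, the largest writer subunit, is listed in the table as KIAA1429.

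In 3 of these 25 genes the groups did not overlap on the CPM scale, against the 7.71% of all genes. RBM15, an RNA-binding writer subunit, was at 21.7, 18.8 and 18.7 CPM in HT embryos and 18.1, 17.96 and 15.4 CPM in Control embryos (log2 fold change 0.20, 95% interval -0.25 to 0.65, and 0.12 without HT replicate 1). AHCY, which removes the S-adenosylhomocysteine left by methyl transfer, was at 2.16, 1.39 and 1.57 CPM in HT embryos and 1.27, 0.965 and 0.830 CPM in Control embryos. Its log2 fold change was 0.74 (95% interval -0.016 to 1.496, unadjusted p = 0.0534, edgeR adjusted p = 0.999923), from 25 to 63 counts per library. The AHCY interval left 0 out with the replicate number as a block (0.10 to 1.37, edgeR adjusted p = 0.491). It also did so scaled by the library total alone (0.099 to 1.60, edgeR adjusted p = 0.99991). LRPPRC, an RNA-binding protein of mitochondria that is listed among m6A readers, was at 133, 121 and 136 CPM in HT embryos and 166, 139 and 140 CPM in Control embryos (log2 fold change -0.19, and -0.10 without Control replicate 1), and its groups overlapped on FPKM.

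IGF2BP1, the remaining IGF2BP paralog, and ELAVL1, an RNA-stabilizing protein, were with AHCY the 3 of the 25 with the smallest p. IGF2BP1 was at 19.6, 13.4 and 10.4 CPM in HT embryos and 15.3, 9.89 and 5.31 CPM in Control embryos. In both groups replicate 1 was the highest library, and the spread within a group exceeded the difference between groups (log2 fold change 0.51, 95% interval -0.42 to 1.44). The value was 0.22 without HT replicate 1, 0.23 without Control replicate 3 and 0.93 without Control replicate 1. ELAVL1 was at 57.9, 45.4 and 56.1 CPM in HT embryos and 32.2, 44.5 and 46.6 CPM in Control embryos (log2 fold change 0.37, 95% interval -0.14 to 0.88, and 0.22 without Control replicate 1). Its HT libraries overlapped the Control range through HT replicate 2.

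The 5 most abundant of the 25 by FPKM were TRMT112, HNRNPA2B1, RBMX, CBLL1 and MAT2B. TRMT112, a small protein that stabilizes several methyltransferases, averaged 346 ± 37.5 FPKM in HT embryos and 321 ± 59.3 FPKM in Control embryos (SD, n = 3 each). HNRNPA2B1, a nuclear reader, averaged 192 ± 62.1 FPKM in HT embryos and 208 ± 56.7 FPKM in Control embryos, and RBMX 71.1 ± 4.97 FPKM in HT embryos and 68.8 ± 17.4 FPKM in Control embryos. CBLL1, an E3 ligase subunit of the writer complex, averaged 46.6 ± 5.25 FPKM in HT embryos and 47.4 ± 8.70 FPKM in Control embryos. MAT2B, the regulatory subunit of methionine adenosyltransferase, averaged 45.5 ± 4.02 FPKM in HT embryos and 43.8 ± 4.77 FPKM in Control embryos. In each of the 5 the difference between means was smaller than the SD of either group. Some of these SDs include an order of replicates that both groups share. HNRNPA2B1 for example was at 911, 686 and 404 CPM in HT embryos and 953, 792 and 449 CPM in Control embryos. HNRNPA2B1 overlaps NFE2L3 over 23.1% of its span, which leaves its counts uncertain.

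The genes most like METTL3 in their deviations over the 6 libraries were SPOCK1, SMC3 and PRICKLE4, among 10342 genes with a symbol that varied at least as much. The root mean square difference of their log2 CPM deviations from those of METTL3 was 0.044, 0.047 and 0.052. SMC3, a cohesin subunit, was at 332, 443 and 440 CPM in HT embryos and at 440, 441 and 504 CPM in Control embryos. HT replicate 1 was its lowest library and Control replicate 3 its highest, as for METTL3, which follows from how SMC3 was picked. Unlike those of METTL3, the groups of SMC3 overlapped, with HT replicate 2 above Control replicates 1 and 2. SPOCK1 overlapped too, with HT replicate 3 (13.4 CPM) above Control replicate 2 (12.9 CPM). PRICKLE4 was separated like METTL3, at 2140, 2617 and 2840 CPM in HT embryos and 2926, 3014 and 3174 CPM in Control embryos. It was picked for its likeness to METTL3, so this is no further support. For FTO the nearest of 2336 genes were DBF4B, NUDT14 and NUBP2, at 0.31, 0.31 and 0.32. These are also transcripts of few reads, DBF4B for example at 0.548, 0.591 and 0.294 CPM in HT embryos and 0.154, 0.552 and 0.830 CPM in Control embryos, and the part of counting error in the likeness was not tested.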

How the data were processed

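The authors deposited whole-number read counts per gene, not normalized, with FPKM and TPM values computed by them, per the file headers. They also deposited coverage per gene (a signal), which was not used here. Build Sscrofa11.1 and the tools StringTie 2.1.3b, Bowtie2, HISAT, HISAT2 2.1.0 and Trimmomatic 0.38 come from the submitters' processing notes, which give no roles. In the sources used here the counting step, also for overlapping genes, is not given. The kit was SMART-Seq v4, per the labels' protocols. Columns of the series table were matched to samples by name, and their FPKM was equal within 1e-05 to that of the sample's own table for 99.4% to 99.5% of 30376 genes, against at most 27.9% for other columns. Gene positions came from a RefSeq table of Sscrofa11.1 matched by Entrez ID (30352 matched).

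In R 4.3.3, edgeR 4.0.16 tested the counts for group alone with its quasi-likelihood method, after TMM scaling and filterByExpr, which kept 16056 genes; p-values were adjusted over all of these by Benjamini-Hochberg, with a threshold of 0.05. The 24 rows without a symbol held 0.527% to 0.658% of the counts and stayed in. The fits were also run on simulated counts, drawn independently for each library. These counts held no order of replicates shared by both groups, so the behaviour of the fits under such an order was not checked. Alternatives were DESeq2 1.42.0, the replicate number as a block, no scaling, no filter, limma 3.58.1 on log2(FPKM + 1), log2(TPM + 1) and log2(FPKM + 0.1) for genes with a mean of at least 1, and leaving out each library. Levels of different genes were compared on FPKM and groups on CPM. Ratios and overlaps are descriptions with no test. Other genes of the pathway were named if their groups did not overlap, or as the 5 highest by FPKM and the 3 with the smallest p. Genes like METTL3 and FTO were the 3 with the smallest root mean square difference of log2 CPM deviations. Sums of a gene with its overlapping gene, and 4 of the ratios (METTL14 and WTAP over METTL3, ALKBH5 over FTO, YTHDC1 over YTHDC2), were chosen after the data were seen. The members and lists were chosen with earlier results of these data known. Replicates of a group differed by far more than sampling noise, at 34.7 to 203 for chi-square per degree of freedom.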

Additional observations from a re-analysis of the deposited data

How the results depend on the processing

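None of the 9 genes was called under any of the 13 alternatives, and of 114 fold changes so obtained 102 kept their sign. The 12 others belonged to METTL14, FTO, YTHDC2 and IGF2BP3, and METTL3, WTAP, ALKBH5, YTHDC1 and IGF2BP2 kept their sign throughout. FTO lay below the limit of 1 for mean FPKM and TPM and had no value on those scales. Over all genes the count called was 0 in the edgeR test of the report, on the FPKM and TPM scales, with no scaling and without each library in turn, 6 with DESeq2, 3 with the replicate block and 1 with no filter on low counts; the cause was not tested. Genes without overlap numbered 1 of 9 on CPM, against 7.71% of all genes tested, and 0 of 9 scaled by the library total alone. They numbered 1 to 3 when a library was left out, where fewer libraries are compared and the share over all genes was not computed.

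The replicate numbers were not taken as pairs. Deviations from the group mean correlated between same-numbered libraries at 0.52 and 0.59 for numbers 1 and 3 but at 0.0080 for number 2 (16056 genes), and HT replicate 2 correlated best with Control replicate 1 (0.14). Deviations sum to 0 within a group, so the values for the numbers are not independent of each other. Whether the numbers mark pairs was not tested. The median standard error was 0.16 with the replicate block and 0.23 without it over the 9 genes, and 0.21 and 0.33 over all genes. With the replicate block edgeR had 1485 genes (9.25%) at an unadjusted p below 0.05, 0 of the 9 genes and 3 of the 25 others (IGF2BP1, AHCY and ELAVL1, adjusted p = 0.413, 0.491 and 0.530).

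Log2 fold changes of opposite sign to those of the report were as follows. With DESeq2 IGF2BP3 was at -0.0036 and RBMX at -0.0011, and with the block RBMX was at -0.0144. With no filter IGF2BP3 was at -0.00034. With no scaling YTHDC2 was at 0.0063 and MAT2B at 0.0601. On log2(FPKM + 1), log2(TPM + 1) and log2(FPKM + 0.1) METTL14 was at 0.0119, 0.0097 and 0.0142 and MAT2B at 0.0543, 0.0518 and 0.0554. Leaving out each library gave ranges of -0.24 to 0.10 for METTL14, -0.55 to 0.35 for FTO, -0.15 to 0.14 for IGF2BP3, -0.044 to 0.0913 for TRMT112, -0.43 to 0.16 for HNRNPA2B1, -0.19 to 0.21 for RBMX and -0.11 to 0.0093 for MAT2B. Depth limits FTO, at 7 to 24 counts per library, more than any other member.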
